A study of Mus musculus with 160 samples.

Results

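The genes described here are 10 mouse genes that mast cells are known for, 10 of 56980 gene identifiers in the deposited tables: the granule protease genes Mcpt1, Mcpt2, Mcpt4, Cma1, Cpa3 and Tpsb2, the IgE receptor chains Fcer1a and Ms4a2, and the receptors Mrgprb1 and Kit. They were chosen by name, as rows of the count and TPM tables, after Mcpt2 had been seen to be high in DBA/2J subcutaneous fat. That measured value chose the set, so DBA/2J against the other strains in subcutaneous fat is described here without a test. The study crossed 4 inbred strains, DBA/2J, A/J, SJL and C57BL/6J, with 4 diets modelled on what people eat, Mediterranean, vegetarian, vegan and American, matched in energy and macronutrients and different in their nutrient sources. All 35 mice were male, were put on their diet at 12 weeks of age and were killed at 18 weeks, after 6 weeks of feeding. Brown fat, visceral fat, quadriceps muscle and subcutaneous fat are described, with 32 libraries each, which is 8 libraries a strain and 2 for each of the 16 pairs of strain and diet. Liver, the fifth tissue, is given only as a level for comparison. The labels name no transgene or deletion, and whole tissue was sequenced, so that in these bulk samples fewer mast cells and less RNA per mast cell cannot be told apart.

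Mast cells are immune cells that live in tissues and store histamine, proteoglycan-bound proteases and other mediators in granules. IgE held by the receptor FcεRI triggers release of the granules when antigen joins the receptors, and the receptor tyrosine kinase Kit, which binds stem cell factor, keeps the cells alive. In mice, mast cells of connective tissue are known for the chymases Mcpt4 and Cma1, the tryptase Tpsb2 and the carboxypeptidase Cpa3, while Mcpt1 and Mcpt2 are known as chymases of mucosal mast cells, as in the gut. Kit is not limited to mast cells and is also made by melanocytes, blood progenitors and other cells.

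The libraries held 18.0 to 28.3 M counts in brown fat, 20.5 to 54.8 M in visceral fat, 20.0 to 30.4 M in muscle and 18.9 to 38.7 M in subcutaneous fat. Some libraries stood apart from their label: 4 in brown fat, 10 in visceral fat, 8 in muscle and 5 in subcutaneous fat. Most of these had Alb, the gene of liver albumin, above 10% of its mean in liver, with a highest share of 62.2% in visceral fat. The visceral library labelled SJL mouse 50 had no counts of Wt1, a gene of visceral fat with a median of 14.4 CPM there, and 16.3 CPM of Hoxc10, which had a median of 16.6 CPM in subcutaneous fat. That library matched the subcutaneous library of the same mouse in its mast cell genes, for instance at 78.1 against 78.5 CPM of Mcpt4 and 38.6 against 40.2 CPM of Cpa3. The subcutaneous library of A/J mouse 24 had 0.291 CPM of Hoxc10. HISAT2 ran with a milder penalty on mismatches for DBA/2J, A/J and SJL reads, so strain and alignment setting cannot be told apart in a contrast with C57BL/6J.

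The chymase genes lie side by side on chromosome 14, in a cluster of 161.1 kb from Cma1 to Ctsg in GRCm39. Cma1 (ENSMUSG00000022225) is on the minus strand at chr14:56178908-56182132, Mcpt1 (ENSMUSG00000022227) on the plus strand at chr14:56255428-56257841, Mcpt2 (ENSMUSG00000022226) on the plus strand at chr14:56279498-56282099 and Mcpt4 (ENSMUSG00000061068) on the minus strand at chr14:56297086-56299770. Mcpt9, a related protease gene reported from uterine mast cells, is the nearest gene upstream of Mcpt2, on the minus strand at chr14:56264321-56267952, with 11545 bases and 0 other annotated genes between them. The other members lie on chromosomes of their own: Cpa3 on 3, Tpsb2 on 17, Fcer1a on 1, Ms4a2 on 19, Mrgprb1 on 7 and Kit on 5. Few 50-base stretches of the members' transcripts occur in another gene's transcripts, 1.58% for Mcpt2, 8.03% for Mcpt4, 5.38% for Cma1, 7.43% for Cpa3 and 2.33% for Ms4a2, against 18.8% for Mcpt9, shared mostly with Cma2. Cpa3 and Kit overlap annotated genes on the opposite strand, and the sources used here do not say whether counting took strand into account.

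The 250 bases before the start of 4 of these genes are shown. The genes sit together, and Mcpt2 and Mcpt9 were high in DBA/2J while Mcpt4 was not. The strain difference of Mcpt1 was not tested. The sequences are read 5′ to 3′ on each gene's own strand from the GRCm39 reference, which is C57BL/6J, and are not DBA/2J sequence. Capitals mark TGATAA on either strand, a form of the motif that GATA factors bind. The windows are chr14:56279248-56279497 on the plus strand for Mcpt2, chr14:56267953-56268202 on the minus strand for Mcpt9, chr14:56255178-56255427 on the plus strand for Mcpt1 and chr14:56299771-56300020 on the minus strand for Mcpt4.
Mcpt2: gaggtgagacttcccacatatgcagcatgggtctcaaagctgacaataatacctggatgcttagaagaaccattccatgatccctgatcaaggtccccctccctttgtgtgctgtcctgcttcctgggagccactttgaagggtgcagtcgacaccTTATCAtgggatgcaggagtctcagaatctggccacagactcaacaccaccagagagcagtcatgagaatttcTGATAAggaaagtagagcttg
Mcpt9: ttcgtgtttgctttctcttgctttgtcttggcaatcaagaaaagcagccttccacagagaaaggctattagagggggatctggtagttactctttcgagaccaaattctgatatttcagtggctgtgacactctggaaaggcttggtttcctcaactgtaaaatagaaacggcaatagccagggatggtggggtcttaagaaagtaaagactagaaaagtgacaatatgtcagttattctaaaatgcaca
Mcpt1: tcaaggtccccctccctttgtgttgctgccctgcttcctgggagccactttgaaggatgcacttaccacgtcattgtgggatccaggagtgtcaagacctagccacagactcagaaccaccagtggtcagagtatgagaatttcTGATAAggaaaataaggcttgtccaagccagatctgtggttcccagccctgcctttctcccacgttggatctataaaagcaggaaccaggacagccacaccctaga
Mcpt4: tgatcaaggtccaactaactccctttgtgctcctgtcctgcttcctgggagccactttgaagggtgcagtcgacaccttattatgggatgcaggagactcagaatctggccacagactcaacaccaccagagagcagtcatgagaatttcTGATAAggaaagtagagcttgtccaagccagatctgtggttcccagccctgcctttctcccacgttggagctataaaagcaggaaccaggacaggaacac
TGATAA stood 21 and 94 bases before the start of Mcpt2, the farther match on the other strand, 106 bases before Mcpt1 and 100 bases before Mcpt4, and the Mcpt9 window held no match. Of 21757 windows of 250 bases before annotated starts, 7.63% held TGATAA. Mcpt2 and Mcpt4 shared an identical run of 74 bases, which ends at the annotated start of Mcpt2 and 79 bases before that of Mcpt4:
Shared run: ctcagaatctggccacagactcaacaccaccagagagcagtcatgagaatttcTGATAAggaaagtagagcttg
With the windows shifted by 79 bases, 84.21% of 171 bases were identical between Mcpt2 and Mcpt4, whereas the longest run shared by Mcpt2 and Mcpt9 was 8 bases.

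Mast cell protease genes were measured in each of the 4 tissues and were highest in subcutaneous fat. Mcpt4 had the highest median of the members in each tissue in TPM, a level scaled to transcript length and library size. It ranged from 3.71 to 35.5 TPM in brown fat with a median of 8.81, from 9.65 to 181 TPM in visceral fat with a median of 36.2, from 9.22 to 42.8 TPM in muscle with a median of 18.5, and from 52.8 to 328 TPM in subcutaneous fat with a median of 130.9. All subcutaneous libraries were above all brown fat and all muscle libraries in Mcpt4, and the visceral range overlapped the subcutaneous one. Median TPM of Cma1 was 7.30 in brown fat, 31.0 in visceral fat, 15.02 in muscle and 91.3 in subcutaneous fat. Median TPM of Cpa3 was 7.19 in brown fat, 19.8 in visceral fat, 9.36 in muscle and 61.7 in subcutaneous fat. Median TPM of Tpsb2 was 4.10 in brown fat, 23.5 in visceral fat, 8.59 in muscle and 65.1 in subcutaneous fat. These 4 genes had the same order of medians, from brown fat through muscle and visceral fat to subcutaneous fat, and neighbours in that order overlapped in their ranges. The highest visceral values of Mcpt4 and Cpa3 came from the library of SJL mouse 50. In liver the medians were 0.187 TPM for Mcpt4 and 0.129 TPM for Cpa3.

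**Figure D1:**
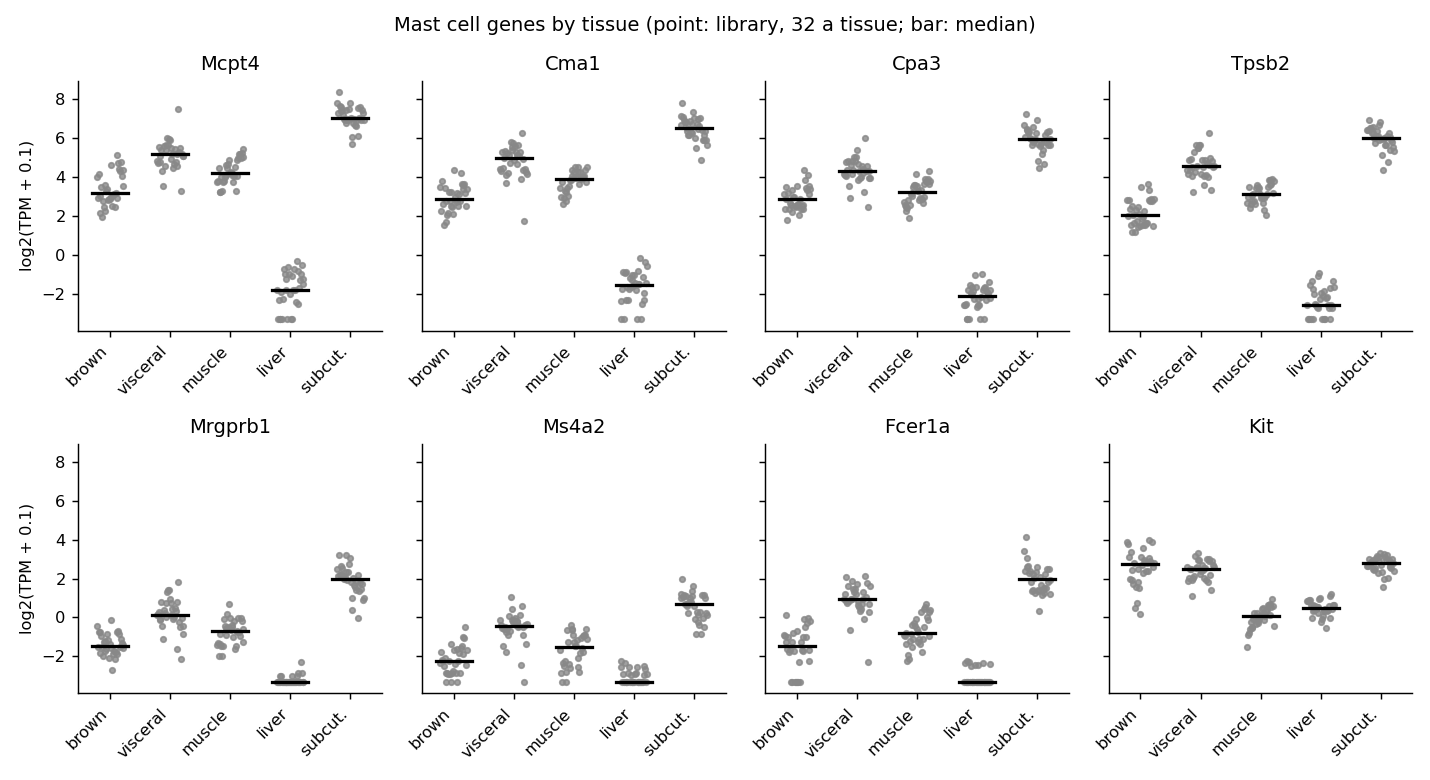
Levels of 8 mast cell genes by tissue, as log2(TPM + 0.1), with brown fat, visceral fat, muscle and liver left of subcutaneous fat; each point is a library, 32 a tissue, and each bar the median. The 4 protease panels run highest in subcutaneous fat, with medians from 61.7 to 130.9 TPM, and lowest in liver, while Kit has medians of 6.65 TPM in brown fat and 6.76 TPM in subcutaneous fat.

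Of the receptor genes, Fcer1a, Ms4a2 and Mrgprb1 had lower medians than these 4 proteases in each tissue. Fcer1a, the chain of FcεRI that binds IgE, had medians of 0.265 TPM in brown fat, 1.83 in visceral fat, 0.465 in muscle and 3.87 in subcutaneous fat. Ms4a2, the signal-amplifying beta chain of that receptor, had medians of 0.111 TPM in brown fat, 0.646 in visceral fat, 0.249 in muscle and 1.504 in subcutaneous fat. Mrgprb1, a G protein-coupled receptor of the Mas-related family expressed by mouse mast cells, had medians of 0.261 TPM in brown fat, 0.997 in visceral fat, 0.511 in muscle and 3.90 in subcutaneous fat. These 3 genes followed the order of tissues seen in the proteases. Kit did not follow that order, with medians of 6.65 TPM in brown fat, 5.58 in visceral fat, 0.964 in muscle and 6.76 in subcutaneous fat, and 1.31 TPM in liver. Mcpt1 was above 0 in 15 of 160 libraries and did not pass the filter on low counts in any comparison.

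In tests of tissue across all genes, mast cell genes were lower in brown fat, visceral fat and muscle than in subcutaneous fat, with Kit higher in brown fat, and Kit and Mcpt2 not called in visceral fat. The tests were edgeR's quasi-likelihood F-tests on counts with strain and diet in the model, n = 32 libraries a tissue, called at a Benjamini-Hochberg adjusted p under 0.05, and the 3 contrasts share the subcutaneous libraries. In brown fat, 9 of 9 tested members were called, 8 lower and 1 higher, against 80.7% of all genes, 41.9% lower and 38.8% higher. These counts hold Mcpt2, whose subcutaneous level in DBA/2J chose the set, so its difference from subcutaneous fat in any tissue is a description and no support, and without it 8 of 8 were called in brown fat, 7 of them lower. The log2 differences of brown minus subcutaneous fat were -2.65 ± 0.15 (SE) for Mcpt4 with an adjusted p of 9.05e-24, -1.98 ± 0.13 for Cpa3 with an adjusted p of 7.63e-22 and -2.74 ± 0.14 for Tpsb2 with an adjusted p of 1.09e-25. Fcer1a differed by -2.69 ± 0.23, Ms4a2 by -2.41 ± 0.23 and Mrgprb1 by -2.61 ± 0.16 on the log2 scale. Kit was higher in brown fat by 0.95 ± 0.16 on the log2 scale (adjusted p = 3.96e-07), a direction that turned in limma fits of TPM, at -0.13 with a pseudocount of 1 and -0.19 with a pseudocount of 0.1. TMM scaling moved the log2 difference of every gene by 0.76 in brown fat, 0.16 in visceral fat and 1.16 in muscle relative to plain library totals.

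In visceral fat, 7 of 9 tested members were called, all lower than in subcutaneous fat, against 65.8% of all genes, 32.3% lower and 33.5% higher. Mcpt4 differed by -1.76 ± 0.15 (adjusted p = 2.06e-15), Cpa3 by -1.45 ± 0.13 (adjusted p = 5.16e-14) and Mrgprb1 by -1.66 ± 0.17 in log2 visceral minus subcutaneous fat. Fcer1a differed by -0.93 ± 0.16 and Ms4a2 by -1.06 ± 0.18. Kit differed by -0.17 ± 0.08 with an adjusted p of 0.0601, and by -0.18 with an adjusted p of 0.0202 when libraries were paired by mouse, which called 8 members. The fitted difference of Mcpt2 was 0.10, a description set by few libraries, since 24 of 32 libraries in each tissue came from strains with little Mcpt2. In muscle, 9 of 9 tested members were lower than in subcutaneous fat, 8 of 8 without Mcpt2, against 85.6% of all genes called, 43.3% lower and 42.3% higher. Mcpt4 differed by -1.44 ± 0.12 (adjusted p = 3.63e-17), Cpa3 by -1.38 ± 0.12 and Kit by -1.48 ± 0.08 (adjusted p = 2.62e-24) in log2 muscle minus subcutaneous fat. The fitted difference of Mcpt2 was -0.87, a description.

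Mcpt2 was highest in DBA/2J in each of the 4 tissues. In subcutaneous fat, where it was chosen, DBA/2J had 49.2 and 24.2 CPM, read counts scaled to the library total, on the American diet, 19.2 and 43.2 on the Mediterranean, 44.7 and 34.3 on the vegetarian and 33.1 and 43.2 on the vegan diet. The highest values of the other strains there were 1.19 CPM in A/J, 0.177 in SJL and 0.358 in C57BL/6J. The means were 36.4 ± 10.6 CPM (SD, n = 8) in DBA/2J and 0.191 ± 0.309 CPM (SD, n = 24) in the other strains, a ratio of 191, given as a description. The 4 diets overlapped within DBA/2J.

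The tissues that played no part in the choice had the same pattern at lower levels. In brown fat, Mcpt2 was 1.72 to 4.603 CPM in DBA/2J with a median of 2.25, while 7 of 8 A/J libraries held none and the highest value of any other strain was 0.304 CPM. In muscle it was 5.48 to 9.63 CPM in DBA/2J with a median of 7.71, and the highest values were 0.403 CPM in A/J, 0.135 in SJL and 0.0471 in C57BL/6J. In visceral fat it was 9.71 to 19.1 CPM in DBA/2J with a median of 15.6, against at most 9.12 CPM in A/J, 0.616 in SJL and 0.431 in C57BL/6J. All 8 DBA/2J libraries thus lay above all 24 others in each tissue. The means (± SD, n = 8 and 24) were 2.44 ± 0.912 in DBA/2J and 0.0339 ± 0.0845 CPM in the other strains in brown fat, a ratio of 72.2 (110.4 without A/J mouse 18), and 7.77 ± 1.30 and 0.0566 ± 0.105 CPM in muscle, a ratio of 137. In visceral fat they were 15.2 ± 3.14 CPM in DBA/2J and 0.554 ± 1.85 CPM in the other strains, a ratio of 27.5, and without A/J mouse 25 the other strains averaged 0.181 ± 0.337 CPM (SD, n = 23), a ratio of 84.2. In liver, DBA/2J had a median of 0.0638 CPM of Mcpt2 and at most 0.233 CPM.

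**Figure D2:**
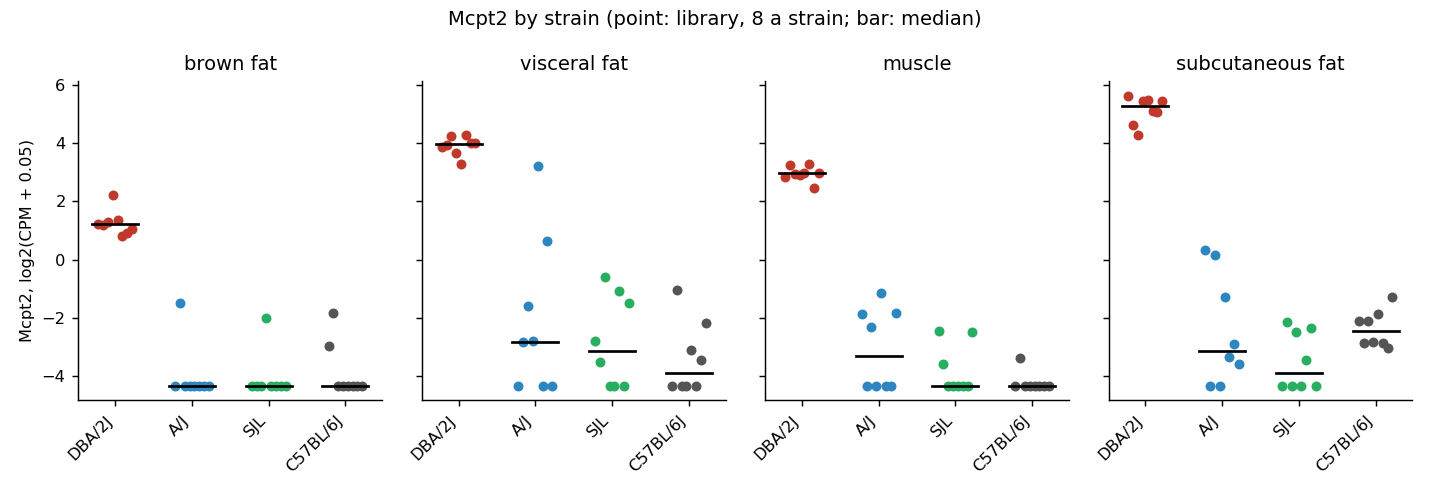
Mcpt2 by strain in 4 tissues, as log2(CPM + 0.05), with DBA/2J at the left; each point is a library, 8 a strain, and each bar the median. The 8 DBA/2J libraries are above all others in each panel, with medians from 2.25 CPM in brown fat to 38.8 CPM in subcutaneous fat, and 1 A/J visceral library reaches 9.12 CPM.

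The Mcpt2 difference of DBA/2J from the mean of the other strains passed the test in visceral fat. It was 5.96 ± 0.72 (SE) on the log2 scale there (edgeR adjusted p = 6.73e-07), where 27.3% of all genes passed the same contrast. In brown fat and muscle Mcpt2 passed the filter on low counts only through DBA/2J. The log2 differences there, 6.18 ± 0.47 in brown fat and 7.67 ± 0.39 in muscle, are therefore a description. These fitted folds of Mcpt2 depend on edgeR's default prior count, because the other strains had few or no counts. The described value in subcutaneous fat was 7.94, and 8.11 without the libraries that stood apart. The reads were aligned to a C57BL/6J reference, and which DBA/2J copy of the gene they came from was not tested. The Mcpt2 contrasts of A/J, SJL and C57BL/6J in these tissues have DBA/2J in the mean they are set against and are not read. In subcutaneous fat the test of Mcpt2 over the other 3 strains rests on few counts, the most being 30 in A/J mouse 17 and 29 in A/J mouse 22. The A/J difference of 1.72 on the log2 scale lost its call in 20 of 32 fits that left out a mouse, and is not read either. Median Mcpt2 in subcutaneous fat was 0.0658 CPM in A/J, 0.0213 in SJL and 0.137 in C57BL/6J, with overlapping ranges.

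Mcpt9, the neighbour of Mcpt2, was also high in DBA/2J. It had 0.162 to 0.784 CPM in DBA/2J brown fat, 0.921 to 1.97 in visceral fat, 0.299 to 1.15 in muscle and 2.34 to 7.36 in subcutaneous fat. The highest values in the other strains were 0.254 CPM in brown fat, 1.23 in visceral fat, 0.128 in muscle and 0.358 in subcutaneous fat. The ranges overlapped in brown and visceral fat and not in muscle or subcutaneous fat. The visceral overlap came from A/J mouse 25 alone, the next highest value outside DBA/2J being 0.438 CPM in A/J mouse 30. Outside DBA/2J, these A/J libraries alone reached the level of the filter in visceral fat. The log2 difference of DBA/2J from the mean of the others was 5.03 ± 0.60 in visceral fat (edgeR adjusted p = 4.92e-07), in a fit that holds A/J mouse 25. In brown fat and muscle Mcpt9 passed the filter on low counts only through DBA/2J. Its differences there, 4.71 ± 0.52 in brown fat and 5.30 ± 0.45 in muscle, are a description. Of Mcpt9, 18.8% of 50-base stretches also occur in another gene, mostly Cma2, which was at most 0.291 CPM in any library described.

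Of the other genes of the cluster, Mcpt4 had a median of 40.9 CPM in DBA/2J subcutaneous fat, against 51.2 in A/J, 62.0 in SJL and 72.5 in C57BL/6J, its DBA/2J range of 22.8 to 50.7 CPM lying below that of C57BL/6J, 58.3 to 137 CPM, and overlapping those of A/J and SJL. Mcpt1, the chymase that lies beyond Mcpt9, had 0 counts in all 32 brown fat libraries, and its summed counts over 32 libraries were 5.5 in visceral fat, 1.5 in muscle and 13.5 in subcutaneous fat. Of the 6 subcutaneous libraries with a Mcpt1 count, 4 were DBA/2J, and the highest had 6 counts, or 0.205 CPM. Of the 13.5 summed subcutaneous counts of Mcpt1, 11.5 were in DBA/2J, and at this depth its strain difference was not tested. Ctsg, which encodes cathepsin G, had a log2 difference of 1.44 ± 0.35 in DBA/2J visceral fat (adjusted p = 0.00324). Mcpt8, a protease gene of basophils, was at most 0.192 CPM.

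**Figure D3:**
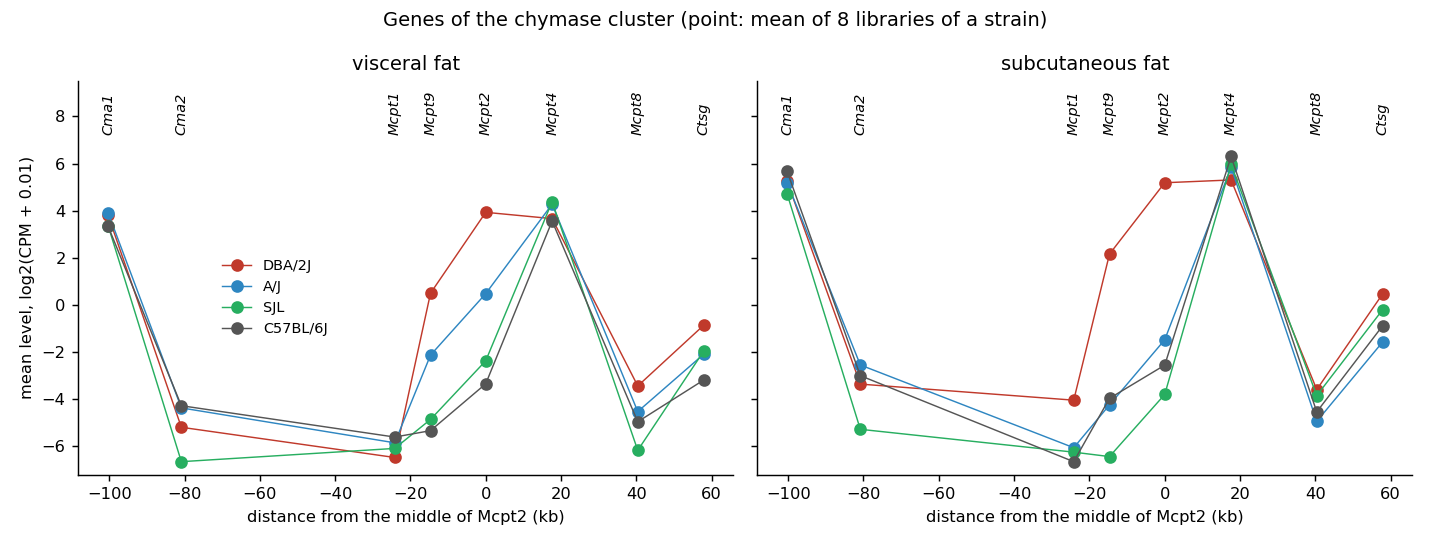
Log2 of the mean CPM of 8 libraries a strain plus 0.01, for 8 genes of the chymase cluster in visceral and subcutaneous fat, against distance in kb from the middle of Mcpt2. The DBA/2J line leaves the other strains most at Mcpt2 and at the neighbouring Mcpt9, with Mcpt2 medians of 15.6 CPM in visceral fat and 38.8 CPM in subcutaneous fat, and lies with them at Cma1 and Mcpt4. It is also above them at Mcpt1 in subcutaneous fat, on few counts, with means of 0.051 CPM in DBA/2J and 0.0051 CPM in A/J. Ctsg was called higher in DBA/2J visceral fat.

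Among the A/J visceral libraries, that of mouse 25 stood apart in Mcpt2 and in other genes that are high in DBA/2J. It had 189 counts of Mcpt2, 58.3% of the DBA/2J median in CPM, and its Mcpt9 was 89.1% of that median. Across 9 genes high in DBA/2J and near 0 elsewhere, it stood at a median of 25.4% of their DBA/2J level. Whether this library holds RNA of another mouse was not tested. Without it and the libraries that stood apart, the DBA/2J difference of Mcpt2 in visceral fat was 6.05 ± 0.77 on the log2 scale (edgeR adjusted p = 3.78e-05). The next highest A/J visceral value of Mcpt2 was 1.51 CPM.

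Relative to Cpa3, the carboxypeptidase of connective tissue mast cell granules, Mcpt2 in DBA/2J had close medians in 3 of the 4 tissues. The ratio of Mcpt2 TPM to Cpa3 TPM had a median of 2.22 in DBA/2J visceral fat (1.68 to 2.84), 2.24 in muscle (1.75 to 2.97) and 2.26 in subcutaneous fat (2.12 to 2.67). In DBA/2J brown fat it was 0.831 (0.430 to 1.33), below every DBA/2J library of the other 3 tissues. Lower ratios to Cpa3 in brown fat were not particular to Mcpt2. Median ratios in DBA/2J brown and subcutaneous fat were 1.44 and 2.40 for Mcpt4, 1.35 and 2.32 for Cma1 and 0.598 and 1.22 for Tpsb2. Kit went the other way, at 1.18 and 0.171. The highest ratio of Mcpt2 to Cpa3 in any other strain was 0.121 in brown fat, 0.802 in visceral fat (A/J mouse 25), 0.0771 in muscle and 0.0514 in subcutaneous fat. Mcpt2 made up a median of 12.9% of the members' summed TPM in DBA/2J brown fat, 26.7% in visceral fat, 26.0% in muscle and 23.9% in subcutaneous fat. The summed TPM of all members in subcutaneous fat had medians of 427 in DBA/2J, 351 in A/J, 323 in SJL and 501 in C57BL/6J, so the DBA/2J sum lay inside the range of the other strains.

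The other chymases had smaller differences in the same ratio. Mcpt4 over Cpa3 had medians between 1.61 and 2.07 in visceral fat and between 1.98 and 2.47 in subcutaneous fat over the 4 strains. Cma1 over Cpa3 in subcutaneous fat was 2.08 to 2.53 in DBA/2J, 1.25 to 1.42 in A/J, 0.922 to 1.20 in SJL and 1.38 to 1.54 in C57BL/6J. The DBA/2J range lay above the others and the SJL range below them, both given as a description. In muscle Cma1 over Cpa3 was 1.93 to 3.16 in DBA/2J, 0.883 to 1.45 in A/J and 1.30 to 2.46 in C57BL/6J, so DBA/2J and C57BL/6J overlapped there.

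**Figure D4:**
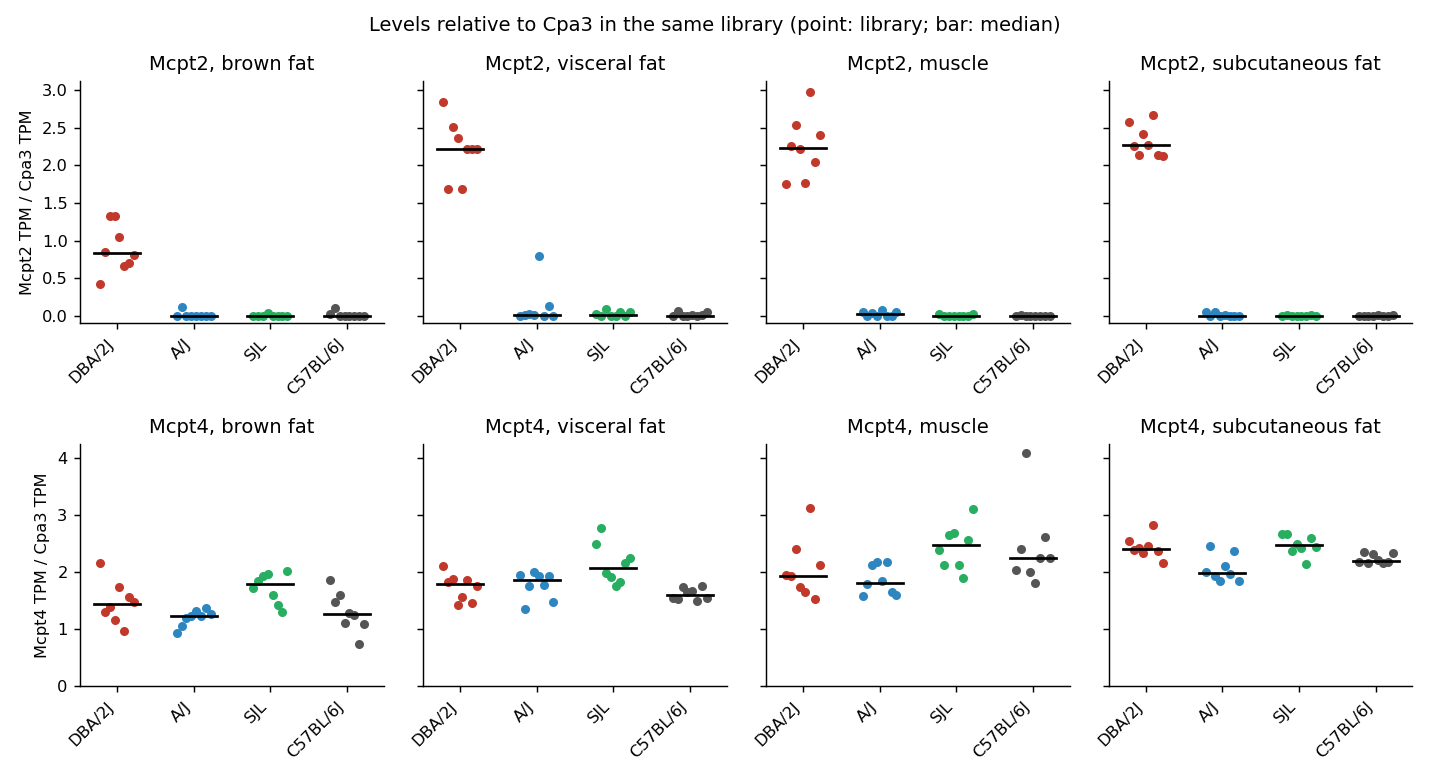
Ratios of TPM of Mcpt2 to Cpa3 (upper row) and of Mcpt4 to Cpa3 (lower row) by strain in 4 tissues, with DBA/2J at the left; each point is a library, 8 a strain, and each bar the median. Mcpt2 to Cpa3 in DBA/2J has a median of 0.831 in brown fat and 2.22 to 2.26 in the other tissues, and the strain medians of Mcpt4 to Cpa3 lie between 1.24 in A/J brown fat and 2.47 in SJL.

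Over the 4 strains, tests called 6 of 8 tested members in brown fat, against 55.2% of all genes, 3 of 9 in visceral fat, against 37.1%, and 9 of 9 in muscle, against 43.4%. Mcpt2 is among those called in brown fat and muscle. It passed the filter there only through DBA/2J, so its part in these counts is a description and no support. In subcutaneous fat the test over A/J, SJL and C57BL/6J called 5 of 9 members, against 43.4% of all genes, 4 of them other than Mcpt2. The 3 in visceral fat were Mcpt2 (adjusted p = 3.59e-06), Tpsb2 (adjusted p = 0.0158) and Kit (adjusted p = 0.0387). Without the libraries that stood apart visceral fat had 5 called, with Cma1 (adjusted p = 0.0443), Cpa3 (adjusted p = 0.0277) and Mrgprb1 (adjusted p = 0.00252) added and Kit lost (adjusted p = 0.203), and without SJL mouse 50 alone it had 7. Fcer1a and Mcpt1 were not tested in brown fat for want of counts.

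SJL had more Mcpt4, Cpa3 and Tpsb2 in brown fat and muscle, while Cma1 was not called in SJL in either tissue and had a muscle median of 7.06 CPM in SJL, against 8.16 in DBA/2J. Mcpt4 in muscle ranged from 13.4 to 22.2 CPM in SJL, against at most 10.5 in DBA/2J, 13.8 in A/J and 11.04 in C57BL/6J, so that 7 of 8 SJL libraries lay above all others. In brown fat Mcpt4 had medians of 9.93 CPM in SJL, 4.04 in DBA/2J, 3.54 in A/J and 3.77 in C57BL/6J, with overlapping ranges. The log2 difference of SJL from the mean of the others was 1.16 ± 0.22 in brown fat (edgeR adjusted p = 0.000187) and 0.88 ± 0.17 in muscle (adjusted p = 0.000168), where 22.9% and 36.1% of all genes passed the same contrasts. Cpa3 was higher too, by 0.82 ± 0.16 in brown fat (adjusted p = 0.000325) and 0.66 ± 0.12 in muscle (adjusted p = 0.000114). Cpa3 in muscle was 7.63 to 12.3 CPM in SJL, against medians of 4.70 in DBA/2J, 7.11 in A/J and 3.67 in C57BL/6J. Tpsb2 was higher in SJL by 0.67 ± 0.20 in brown fat (adjusted p = 0.0165) and 0.50 ± 0.16 in muscle (adjusted p = 0.0152). With the libraries that stood apart left out, Tpsb2 differed by 0.59 ± 0.23 in brown fat (adjusted p = 0.0785) and 0.30 ± 0.14 in muscle (adjusted p = 0.0898), and without SJL mouse 64 it also missed the threshold in both tissues.

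In visceral fat no SJL contrast of a member passed, against 16.1% of all genes, and the SJL group there holds the library of mouse 50. Median Mcpt4 in visceral fat was 13.7 CPM in SJL, 12.2 in DBA/2J, 19.4 in A/J and 10.6 in C57BL/6J. In subcutaneous fat 3 members were called lower in SJL than in A/J and C57BL/6J, a contrast without DBA/2J in which 37.8% of all genes were called in either direction. Cma1 was 13.4 to 34.7 CPM in SJL, against 26.9 to 61.5 in A/J and 35.9 to 92.4 in C57BL/6J. It was lower in SJL than the mean of A/J and C57BL/6J, at -0.72 ± 0.18 on the log2 scale (adjusted p = 0.00186), and Tpsb2, at -0.54 ± 0.15 (adjusted p = 0.00558). All 8 C57BL/6J libraries lay above all SJL libraries in subcutaneous Cma1.

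C57BL/6J was the high strain for some members in subcutaneous fat, among A/J, SJL and C57BL/6J, and a low strain in muscle. In subcutaneous fat, Cma1 was higher in C57BL/6J by 0.68 ± 0.17 (adjusted p = 0.0031), Fcer1a by 0.98 ± 0.22 (adjusted p = 0.00116) and Tpsb2 by 0.46 ± 0.15 (adjusted p = 0.0217) on the log2 scale, against 23.0% of all genes called, and the Tpsb2 call was lost without C57BL/6J mouse 7, the highest library of 7 members there. In muscle, 6 members were called lower in C57BL/6J, against 26.4% of all genes called. Mcpt2 is among the 6, but its contrast is set against a mean that holds DBA/2J and is not read. The others were Cpa3, Kit, Cma1, Ms4a2 and Mrgprb1. Cpa3 in muscle ranged from 2.20 to 4.73 CPM in C57BL/6J, with a log2 difference of -0.67 ± 0.14 (adjusted p = 0.000393). Mrgprb1 differed by -0.91 ± 0.21 (adjusted p = 0.00165), Ms4a2 by -1.70 ± 0.44 (adjusted p = 0.00457) and Cma1 by -0.52 ± 0.18 (adjusted p = 0.0305). Without the libraries that stood apart, Cma1 differed by -0.30 ± 0.21 with an adjusted p of 0.257, and the calls of Cpa3, Kit, Ms4a2 and Mrgprb1 were kept. With 1 mouse left out at a time, Cma1 ranged from -0.71 to -0.43 and lost its call without mouse 2, 8, 9, 13, 16, 22, 24 or 43. TMM scaling moved every gene's log2 difference in C57BL/6J muscle by 0.25 relative to plain totals, in SJL muscle by -0.17, in DBA/2J visceral fat by -0.17 and in C57BL/6J visceral fat by 0.14. In C57BL/6J brown and visceral fat, where 25.4% and 11.3% of all genes were called, no member other than Mcpt2 in visceral fat passed.

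**Figure D5:**
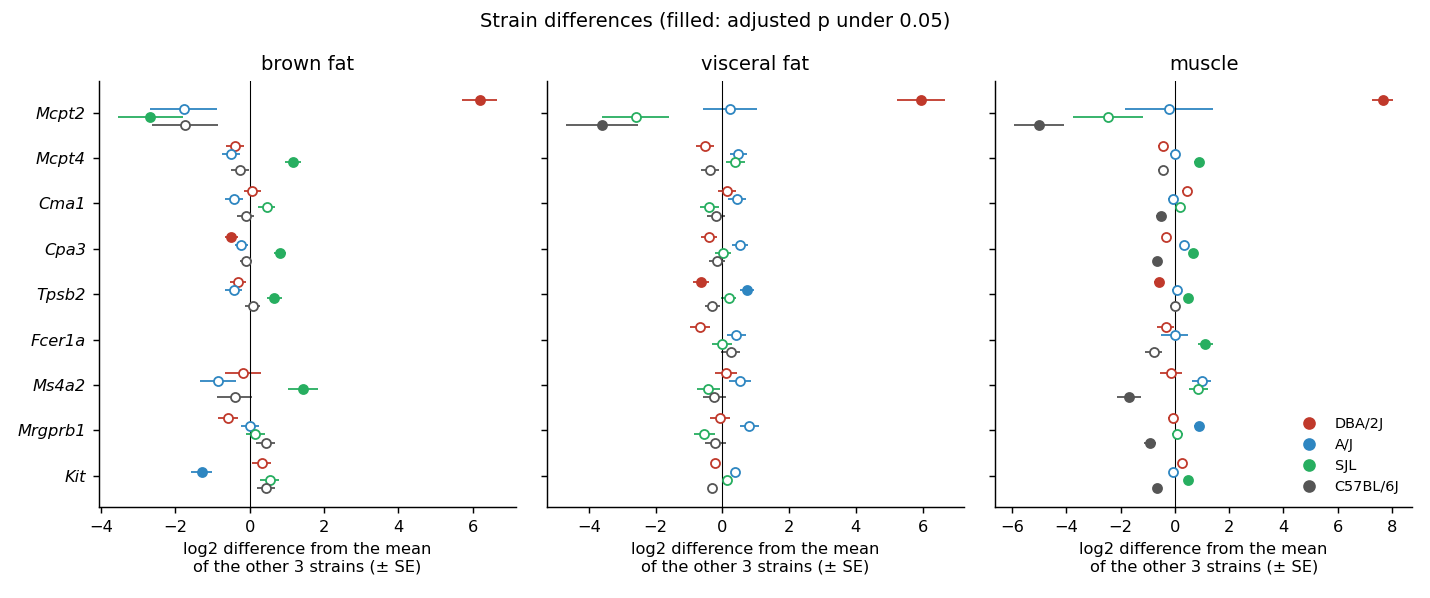
Log2 difference of each strain from the mean of the other 3 (± SE) for the tested members in brown fat, visceral fat and muscle; filled points have an adjusted p under 0.05, and those of Mcpt2 in SJL and C57BL/6J are set against a mean that holds DBA/2J. Mcpt2 in DBA/2J stands at 5.96 to 7.67, and the other called differences are smaller, such as 1.16 for Mcpt4 in SJL brown fat and -1.29 for Kit in A/J brown fat. Mcpt2 passed the filter on low counts in brown fat and muscle only through DBA/2J, so its points there are a description.

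Mcpt2 aside, no member was called higher in DBA/2J in brown fat, visceral fat or muscle. In that contrast 33.7%, 27.3% and 14.7% of all genes were called in these tissues, in either direction. Cpa3 was lower in DBA/2J brown fat, at -0.50 ± 0.17 (adjusted p = 0.0271), and Tpsb2 was lower in DBA/2J muscle, at -0.58 ± 0.17 (adjusted p = 0.0209) and visceral fat, at -0.64 ± 0.23 (adjusted p = 0.0396). Without the libraries that stood apart, Cpa3 in brown fat was at -0.44 ± 0.18 (adjusted p = 0.0588) and Tpsb2 in visceral fat at -0.53 ± 0.20 (adjusted p = 0.0553). Leaving out 1 mouse at a time, the call of Cpa3 was lost without mouse 34, 38, 42 or 43, that of Tpsb2 in muscle without mouse 38, 39 or 45 and that of Tpsb2 in visceral fat without any of 11 mice, with ranges of -0.64 to -0.41 for Cpa3 in brown fat, -0.65 to -0.48 for Tpsb2 in muscle and -0.73 to -0.50 for Tpsb2 in visceral fat. In subcutaneous fat, the described log2 differences of DBA/2J were -0.77 for Cpa3, -0.65 for Mcpt4, -0.45 for Tpsb2, -0.86 for Fcer1a, -0.88 for Ms4a2 and 0.13 for Cma1. Tpsb2 was highest in A/J visceral fat, with a median of 24.3 CPM in A/J, against 11.8 in DBA/2J, 13.3 in SJL and 11.4 in C57BL/6J. That difference was 0.75 ± 0.22 (adjusted p = 0.0207), where 12.4% of all genes were called, and it was not called without A/J mouse 32 or 22.

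Among the receptors, both IgE receptor chains were called over strains in muscle, Ms4a2 also in brown fat, where Fcer1a was not tested, and Fcer1a also in subcutaneous fat, where Ms4a2 was not called. Fcer1a in muscle had medians of 0.477 CPM in SJL, 0.148 in DBA/2J, 0.248 in A/J and 0.125 in C57BL/6J, and was higher in SJL by 1.13 ± 0.26 on the log2 scale (edgeR adjusted p = 0.00134). In subcutaneous fat Fcer1a was 1.73 to 6.67 CPM in C57BL/6J, against 0.771 to 2.04 in A/J and 0.868 to 2.17 in SJL. Ms4a2 in brown fat had medians of 0.291 CPM in SJL, 0.122 in DBA/2J, 0.0504 in A/J and 0.127 in C57BL/6J, and was higher in SJL by 1.43 ± 0.39 (adjusted p = 0.00799). These CPM values are few counts a library, and the groups overlapped. Mrgprb1 in muscle was higher in A/J by 0.89 ± 0.19 (adjusted p = 0.00109), at a median of 1.31 CPM in A/J, 0.876 in DBA/2J, 0.883 in SJL and 0.485 in C57BL/6J, where 11.3% of all genes were called. In subcutaneous fat Mrgprb1 was 1.53 to 7.01 CPM in SJL, against 5.49 to 12.9 in A/J and 6.31 to 14.5 in C57BL/6J. It was lower in SJL, at -0.98 ± 0.21 on the log2 scale (adjusted p = 0.000418). In A/J subcutaneous fat, where 22.6% of all genes were called, no member other than Mcpt2 was called.

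Kit followed another order. In brown fat Kit was 3.89 to 26.5 CPM in A/J with a median of 11.2, against medians of 28.3 in DBA/2J, 27.4 in SJL and 27.4 in C57BL/6J. It was lower in A/J, at -1.29 ± 0.28 on the log2 scale (adjusted p = 0.000668), where 35.0% of all genes were called. In muscle Kit was 1.08 to 3.02 CPM in C57BL/6J, with medians of 2.10 in C57BL/6J, 5.08 in SJL, 4.03 in DBA/2J and 3.36 in A/J. It was lower in C57BL/6J, at -0.67 ± 0.14 (adjusted p = 0.000592) and higher in SJL by 0.49 ± 0.13 (adjusted p = 0.00432). In subcutaneous fat the Kit medians lay between 20.9 and 23.8 CPM and did not pass the test over A/J, SJL and C57BL/6J (adjusted p = 0.809). With the libraries that stood apart left out, Kit in SJL brown fat also passed, at 0.79 ± 0.25 (adjusted p = 0.031) against 0.53 with all libraries.

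Whether the strain differences themselves differed between tissues was tested among the 3 tissues that did not choose the set. Between visceral and brown fat, 3 members were called, Kit (adjusted p = 0.000312), Ms4a2 (adjusted p = 0.0308) and Tpsb2 (adjusted p = 0.0376), against 20.0% of all genes. Between muscle and brown fat, 4 members were called, Kit (adjusted p = 0.0016), Mrgprb1 (adjusted p = 0.00369), Cpa3 (adjusted p = 0.0468) and Ms4a2 (adjusted p = 0.0491), against 41.0% of all genes. Between visceral fat and muscle, Kit alone was called (adjusted p = 0.0304), against 31.5% of all genes. With libraries paired by mouse in edgeR, that Kit call was lost (adjusted p = 0.114), as was that of Ms4a2 between muscle and brown fat (adjusted p = 0.0671). The Mcpt2 strain difference was not called between any of these tissues, with unpaired adjusted p-values of 0.630, 0.173 and 0.492, which does not show that the differences were equal. The A/J difference of Kit was higher in visceral than in brown fat by 1.66 ± 0.29 (adjusted p = 8.75e-05) and higher in muscle than in brown fat by 1.19 ± 0.29 (adjusted p = 0.0045), where 11.4% and 10.8% of all genes were called. The C57BL/6J difference was lower in muscle than in brown fat, at -1.34 ± 0.33 for Mrgprb1 (adjusted p = 0.00259) and -1.11 ± 0.30 for Kit (adjusted p = 0.00551), against 18.4% of all genes. The A/J difference of Tpsb2 was higher in visceral than in brown fat by 1.18 ± 0.32 (adjusted p = 0.0106). The SJL difference of Ms4a2 was lower in visceral than in brown fat, at -1.89 ± 0.53 (adjusted p = 0.0226, 5.25% of all genes), and that of Fcer1a lower in visceral fat than in muscle, at -1.07 ± 0.40 (adjusted p = 0.0437, 25.4% of all genes), the first lost without mouse 59 or 53 and the second in 20 of 34 fits that left out a mouse. Without the libraries that stood apart, Cpa3 between muscle and brown fat (adjusted p = 0.268), Tpsb2 between visceral and brown fat (adjusted p = 0.0669), Kit between visceral fat and muscle (adjusted p = 0.161) and the Fcer1a contrast of SJL (adjusted p = 0.087) were lost.

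Diet changed no mast cell gene past the threshold in any tissue. The edgeR test over the 4 diets called 0 of 8 tested members in brown fat, against 0.0247% of all genes, and 0 of 9 in visceral fat, muscle and subcutaneous fat, against 0.0% of all genes in each. DESeq2 and limma also called 0. Without adjustment, p was under 0.05 for 2 members in brown fat, Kit and Mrgprb1, against 11.6% of all genes. It was under 0.05 for 0 members in the other tissues, against 3.52% of all genes in visceral fat, 2.44% in muscle and 2.42% in subcutaneous fat. In brown fat, Mrgprb1 had medians of 0.529 CPM on the Mediterranean, 0.587 on the vegetarian, 0.383 on the vegan and 0.712 on the American diet, and Kit had 23.7, 27.5, 17.5 and 29.8 CPM on the same diets. For vegan minus American, 6 of 8 members had an unadjusted p under 0.05, against 14.6% of all genes, among them Mrgprb1 at -1.05 ± 0.32 (adjusted p = 0.151), Kit at -1.02 ± 0.32 (adjusted p = 0.158) and Tpsb2 at -0.75 ± 0.26 (adjusted p = 0.184) on the log2 scale. The 10 lymph node genes had a median of -2.20 in that contrast, with 10 of 10 at an unadjusted p under 0.05 and 0 called, and their part in it was not tested. The median over the 8 members in that contrast was -0.80, and over all genes it was -0.03. In subcutaneous fat the members' medians against American were 0.23 on the Mediterranean, 0.09 on the vegetarian and 0.17 on the vegan diet. The interaction of strain and diet called 0 members in each tissue, against 0.0099% of all genes in brown fat, 0.22% in visceral fat and 0.0% in muscle and subcutaneous fat. An unadjusted p under 0.05 was seen for 1 member, Ms4a2 in muscle, where 5.72% of all genes had one. With 2 libraries for each pair of strain and diet, this interaction was measured with little precision.

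Within strains and diets, the connective tissue proteases moved together from mouse to mouse. After the means of strain and diet were taken out, the mean Spearman correlation with Cpa3 over the 4 tissues, 32 libraries each, ranked Cma1 first of 18696 genes at 0.89, Mcpt4 next at 0.88 and Tpsb2 after it at 0.78. Mrgprb1 ranked 6 at 0.60, and Ms4a2 ranked 100 at 0.44, with 0.79 in subcutaneous fat and 0.06 in muscle. Kit was at -0.02 and Mcpt2, which is near 0 in 3 strains, at -0.03. The genes outside the set with the highest values were Clec10a at 0.62 and Cd209d at 0.61, which encode lectins of macrophages and dendritic cells, then Dcn, the proteoglycan decorin, at 0.60, Tgfbi at 0.58 and Slc6a4, the serotonin transporter, at 0.57. Both genes of each correlation were read from the same libraries and share their depth.

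Other genes of mast cells were taken from a list of 11 granule and protease genes. Tests over strains called 5 of 7 tested genes of this list in brown fat, against 55.2% of all genes, 6 of 10 in visceral fat, against 37.1%, 6 of 10 in muscle, against 43.4%, and 6 of 10 in subcutaneous fat over the 3 strains other than DBA/2J, against 43.4%. Mcpt9 is on this list and passed the filter in brown fat and muscle only through DBA/2J, so its part in those counts is a description. Tpsab1, which encodes another tryptase close to Tpsb2 on chromosome 17, was 2.03 to 3.05 CPM in SJL muscle, against at most 0.950 CPM in the other strains. It was higher in SJL by 2.34 ± 0.31 in brown fat (edgeR adjusted p = 1.19e-06), 2.04 ± 0.18 in visceral fat (adjusted p = 5.33e-09) and 2.85 ± 0.20 in muscle (adjusted p = 5.94e-12). In subcutaneous fat Tpsab1 was higher in SJL than in A/J and C57BL/6J by 1.52 ± 0.19 (adjusted p = 5.75e-07), a contrast without DBA/2J. The ratio of Tpsab1 TPM to Cpa3 TPM there had medians of 0.0957 in DBA/2J, 0.0874 in SJL, 0.0412 in A/J and 0.0228 in C57BL/6J. Tph1, the enzyme that begins serotonin synthesis in mast cells, was 0 to 0.214 CPM in SJL subcutaneous fat, against at least 0.796 CPM in every library of the other strains. It was lower in SJL, at -4.69 ± 0.35 in muscle (adjusted p = 1.4e-11) and, against A/J and C57BL/6J alone, -3.90 ± 0.34 in subcutaneous fat (adjusted p = 6.01e-10). SJL thus stood high for Tpsab1 and low for Tph1 in these contrasts. Among A/J, SJL and C57BL/6J, Hdc, which makes histamine, was higher in A/J subcutaneous fat by 0.73 and lower in C57BL/6J, at -0.82 on the log2 scale.

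A list of 14 mast cell receptors and regulators had 6 of 12 tested genes called over strains in brown fat, 6 of 13 in visceral fat, 10 of 13 in muscle and 8 of 14 in subcutaneous fat, against the same shares of all genes, 55.2%, 37.1%, 43.4% and 43.4%. Fcer1g, the gamma chain that FcεRI shares with other Fc receptors of myeloid cells, was 48.0 to 99.6 CPM in C57BL/6J subcutaneous fat, against at most 42.9 CPM in A/J and SJL. Hpgds, a prostaglandin D synthase also made by macrophages, was 3.92 to 10.9 CPM in SJL muscle, against at most 3.69 CPM in the other strains, a log2 difference of 1.71 ± 0.15 (adjusted p = 5.54e-10). Il9r, the interleukin receptor that lymphocytes carry too, was 18.8 to 56.8 CPM in SJL subcutaneous fat, 0.159 to 3.87 in A/J and 10.2 to 27.2 in C57BL/6J. Summed lymph node markers, 10 genes, had medians of 457 CPM in DBA/2J subcutaneous fat, 693 in A/J, 1470 in SJL and 1147 in C57BL/6J, and their part in Il9r was not tested. Between tissues, 10 of 10 granule genes and 13 of 14 receptor genes were called in brown against subcutaneous fat, against 80.7% of all genes, with medians of -1.80 and -1.88 on the log2 scale.

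Markers of other cells were measured beside these results. Of 5 basophil genes, the defining Mcpt8 was at most 0.192 CPM and Prss34 at most 1.02 CPM, and the sum, mostly Il3ra and Itga2, had medians of 32.2 CPM in DBA/2J, 30.8 in A/J, 24.0 in SJL and 28.9 in C57BL/6J subcutaneous fat. Il3ra, the interleukin-3 receptor chain that other blood and vessel cells also make, was higher in DBA/2J by 1.12 in brown fat (adjusted p = 1.6e-10) and 0.89 in visceral fat (adjusted p = 2.07e-06). The 5 intestinal epithelium genes summed to medians of 38.7 CPM in DBA/2J, 37.8 in A/J, 24.7 in SJL and 31.9 in C57BL/6J subcutaneous fat, with overlapping DBA/2J and A/J values. The 9 skin genes in subcutaneous fat summed to 17.4 to 316 CPM in DBA/2J, 23.4 to 74.0 in A/J, 11.1 to 76.4 in SJL and 32.5 to 99.7 in C57BL/6J. Their part in the levels of Mcpt2 was not tested. The 5 genes of melanocytes, cells that also carry Kit, summed to medians of 9.52 CPM in DBA/2J, 10.7 in A/J, 18.2 in SJL and 10.8 in C57BL/6J subcutaneous fat.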

How the data were processed

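Polyadenylated RNA of 160 tissue samples from 35 mice was sequenced as 150-base read pairs, per the labels' protocols, and 128 libraries of 4 tissues are described. The authors deposited estimated counts per gene, fractional where reads were shared, 74.4% of the values above 0 being whole within 1e-06. They also deposited TPM values, which take gene length into account. FastQC, Trim Galore, HISAT2 and HTSeq with GRCm39 are named in the submitters' processing notes, with no version given in the sources used here. Of 56980 gene IDs, 56236 had a name, and 0 columns were left unmapped to a sample. From there, counts were rounded and tested with edgeR 4.0.16 in R 4.3.3 (quasi-likelihood F-test, TMM, filterByExpr with a minimum count of 10 and a total of 15, default prior count), adjusted by Benjamini-Hochberg over all genes tested and called at 0.05. Log2 CPM values for the correlations and for Cpa3 as a covariate were made with a prior count of 2. Levels are CPM over plain library totals, and levels between genes are compared in TPM alone. Strain and diet were additive terms, and the interaction was fitted over the 16 pairs of strain and diet. The script was tested on simulated data. Alternatives were RLE factors, no filter, DESeq2 1.42.0, limma 3.58.1 on log2(TPM + 1) and log2(TPM + 0.1), leaving out each mouse and leaving out libraries that stood apart (Alb above 10% of the liver mean, or a depot marker below 10% of its depot's median). They also included Cpa3 as a covariate and the mouse as a block.

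The mouse numbers in the labels pair libraries of different tissues. Same-mouse residuals had median correlations of -0.02 for brown and subcutaneous fat, 0.004 for visceral and subcutaneous fat, 0.15 for muscle and subcutaneous fat, 0.22 for visceral and brown fat, 0.07 for muscle and brown fat and 0.09 for visceral fat and muscle. The members and the lists were chosen with earlier results of these data known. All 10 members are named, with up to 4 genes of each other list by smallest adjusted p in a comparison and the 5 genes outside the set most like Cpa3. Replicates are separate mice, and each strain was represented by 8 of them in a tissue.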

Additional observations from a re-analysis of the deposited data

Results flagged for a closer look

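Libraries far from the other 7 of their strain in a tissue, by the gap to the nearest of them, were found in 42 of 152 groups of a member. No rate by chance is given, because a single library above 0 in a group always stands apart by this rule and members share libraries. Values are in CPM. The subcutaneous library of C57BL/6J mouse 7 was the highest of its group for 7 members, at 137 of Mcpt4, 92.4 of Cma1, 87.2 of Cpa3, 73.4 of Tpsb2, 6.67 of Fcer1a, 4.14 of Ms4a2 and 14.5 of Mrgprb1. The library of the same mouse was also high for Mcpt4 in muscle, at 11.04, and for Fcer1a in brown fat, at 0.436. The visceral library of SJL mouse 50, which lacks Wt1, was the highest at 78.1 of Mcpt4, 32.1 of Cma1, 38.6 of Cpa3, 48.1 of Tpsb2, 1.56 of Ms4a2 and 5.53 of Mrgprb1, and had 0.0381 of Mcpt1. The brown fat library of DBA/2J mouse 33 was the highest of its strain at 11.9 of Mcpt4, 9.45 of Cma1, 7.54 of Tpsb2 and 1.48 of Mrgprb1.

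For Mcpt2, A/J mouse 25 stood out in visceral fat at 9.12, C57BL/6J mouse 2 at 0.231 in brown fat, 0.0471 in muscle and 0.431 in visceral fat, A/J mouse 18 at 0.304, DBA/2J mouse 39 at 4.603 and SJL mouse 54 at 0.199 in brown fat. For Mcpt1, where most libraries are at 0, DBA/2J mouse 45 had 0.205, A/J mouse 25 had 0.0406 and SJL mouse 55 had 0.0258 in subcutaneous fat. In visceral fat, Mcpt1 was 0.085 in C57BL/6J mouse 13, 0.0411 in A/J mouse 17 and 0.0105 in DBA/2J mouse 40, and in muscle it was 0.0434 in SJL mouse 53. Mcpt4 was 22.2 in muscle of SJL mouse 64 and, on the low side, 8.31 in visceral fat of A/J mouse 20. Cma1 was 61.5 in subcutaneous fat of A/J mouse 32. Cpa3 in muscle was 11.4 in A/J mouse 30 and 12.3 in SJL mouse 59. Fcer1a was 0.465 in muscle of DBA/2J mouse 42, and Ms4a2 was 0.378 in brown fat of A/J mouse 25 and 0.278 in muscle of C57BL/6J mouse 1.

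The strain differences of some members differed between tissues by a test of that difference in edgeR. Between muscle and brown fat the adjusted p was 0.0468 for Cpa3, 0.0016 for Kit, 0.0491 for Ms4a2 and 0.00369 for Mrgprb1. Between visceral and brown fat it was 0.000312 for Kit, 0.0308 for Ms4a2 and 0.0376 for Tpsb2, and between visceral fat and muscle it was 0.0304 for Kit.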

How the results depend on the processing

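The counts of members called were recomputed under each alternative. Over 18 comparisons, 130 recomputed counts outside the leave-one-out fits were within 1.5 times the value reported and 20 were not. The comparisons of diets and of strain by diet called 0 members in every setting. They are counted among the 130, so that number says little of the comparisons that called members. Strains in visceral fat gave 3 called, 1 with limma on log2(TPM + 1), 5 without the libraries that stood apart and 5 with Cpa3 as a covariate. Strains in muscle gave 9 called, against 5 with limma at either pseudocount and 5 with Cpa3 as a covariate. With Cpa3 as a covariate, 2 members were called in visceral against subcutaneous fat and 2 in muscle against subcutaneous fat. The strain effect between visceral and brown fat gave 6 with limma at either pseudocount, that between muscle and brown fat gave 2 with no filter on low counts and 1 with Cpa3 as a covariate. That between visceral fat and muscle gave 3 with limma at either pseudocount, 3 without the libraries that stood apart, 3 when the A/J visceral library of mouse 25 was left out as well (an alternative chosen after seeing the data), 3 with Cpa3 as a covariate, 2 with DESeq2 and 0 with no filter. The described difference of Mcpt2 in DBA/2J subcutaneous fat was 6.09 with limma on log2(TPM + 1), against 7.94. The cause of these moves was not tested.

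With the mouse as a replicate block, pairing libraries across tissues, 9 members were called in brown against subcutaneous fat, 8 in visceral against subcutaneous fat, 9 in muscle against subcutaneous fat, 3 and 3 in the strain effects of visceral and of muscle against brown fat, and 0 in that of visceral fat against muscle, where Kit had an adjusted p of 0.114. The block also lost Ms4a2 between muscle and brown fat (adjusted p = 0.0671).

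With each mouse left out in turn, the members called ranged from 5 to 7 over strains in brown fat, 2 to 7 in visceral fat (7 without SJL mouse 50), 8 to 9 in muscle and 4 to 6 in subcutaneous fat. They ranged from 9 to 9 in brown against subcutaneous fat, 7 to 8 in visceral against subcutaneous fat, 9 to 9 in muscle against subcutaneous fat, and 0 to 0 for diets and for strain by diet in every tissue. The strain effects ranged from 1 to 8 between visceral and brown fat, moved by over 1.5 times without mouse 27 or 50, 2 to 4 between muscle and brown fat, moved without mouse 7, 8, 12, 16, 17, 27, 30, 32, 34, 43, 49, 50, 53, 57 or 59, and 0 to 7 between visceral fat and muscle, moved without mouse 1, 45, 16, 25, 27, 49 or 50. Tpsb2 in DBA/2J visceral fat lost its call without mouse 7, 9, 13, 22, 27, 32, 33, 39, 40, 42 or 45, and the SJL difference of Ms4a2 between visceral and brown fat without mouse 53 or 59.

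Values that turned in sign were those with Cpa3 as a covariate and 2 of limma. With Cpa3 as a covariate, Tpsb2 in SJL was -0.070 in brown fat and -0.10 in muscle, and Cma1 in C57BL/6J muscle was 0.23. Against subcutaneous fat, Ms4a2 was 0.0201 in brown fat, Fcer1a 0.57, Ms4a2 0.49 and Tpsb2 0.0171 in visceral fat, and Fcer1a 0.21, Cma1 0.0103 and Ms4a2 0.49 in muscle. Kit in brown against subcutaneous fat was -0.13 and -0.19 with limma at pseudocounts of 1 and 0.1. Of the recomputed values of called members outside the leave-one-out fits, 469 kept direction and call, 58 kept direction alone and 12 turned. Depth limits Fcer1a, Ms4a2 and Mcpt1, whose levels in brown fat and muscle are a few counts a library, and the interaction of strain and diet rests on 2 libraries a pair.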

Other observations

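In liver, the members' summed TPM had medians of 1.86 in DBA/2J, 2.28 in A/J, 2.61 in SJL and 2.07 in C57BL/6J. The ratio of Mcpt9 TPM to Cpa3 TPM in DBA/2J had medians of 0.0852 in brown fat, 0.102 in visceral fat, 0.126 in muscle and 0.147 in subcutaneous fat. The 5 eosinophil genes in subcutaneous fat summed to medians of 2.52 CPM in DBA/2J, 2.15 in A/J, 4.15 in SJL and 7.26 in C57BL/6J. AGATAA, another form of the motif that GATA factors bind, stood 29 bases before the start of Cpa3 and 11 bases before that of Ms4a2, and 9.61% of 21757 windows of 250 bases held it.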
